A study of Homo sapiens with 12 samples.

Results

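The Krüppel-like factors (KLFs) are zinc finger transcription factors, and 10 of them were followed here by name: KLF2, KLF3, KLF4, KLF5, KLF6, KLF7, KLF9, KLF10, KLF11 and KLF13. The 10 were taken as a list of gene symbols, each matched 1 of the 57820 gene rows of the count table, and all 10 were among the 17096 genes with enough counts to test. RNA was sequenced from 3 established human cancer cell lines: A549 (lung), SKOV3 (ovary) and MDA-MB-231 (breast). All cells were puromycin-selected after transduction with a lentivirus, which carried either an empty control vector (labelled WT) or a vector for full-length human c-Myc. Control and MYC cells of each line received DMSO or tipifarnib, a farnesyltransferase inhibitor, for 48 h, at 10 µM in A549 and 20 µM in SKOV3 and MDA-MB-231. The 12 libraries thus form 4 groups, each holding 1 library of every line. No repeat culture of a line is shown in the labels, so the p-values reflect the spread among these 12 samples alone.

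KLFs share 3 zinc fingers at the carboxyl end that bind GC-rich and CACCC sequences, while their amino-terminal parts differ and recruit different cofactors. KLF2, KLF4, KLF5, KLF6 and KLF7 act largely as activators, KLF3 binds the corepressor CtBP, and KLF9, KLF10, KLF11 and KLF13 bind the corepressor Sin3A. Several are induced quickly by stress, growth factors or shear stress, and KLF2 and KLF4 are known targets of the ERK5 kinase acting through MEF2 factors.

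Promoter sequence is shown for the 3 activators with the largest rises in tipifarnib in SKOV3, since MEF2 factors and MYC each have a textbook binding sequence. Whether either acts on these genes in these cells was not tested. The table of promoters (RefSeq, build GRCh38.p14) held 13 windows for 8 members, not KLF3 or KLF10, each window reaching from 250 bases before to 50 after a transcription start. Sequences run 5′ to 3′ on the gene's strand and stop before the start or the first annotated exon base. Capitals mark the MEF2 motif in KLF2 and the E-box CACGTG, the core sequence bound by MYC, in the others.
KLF2, chr19:16324576-16324816, plus strand: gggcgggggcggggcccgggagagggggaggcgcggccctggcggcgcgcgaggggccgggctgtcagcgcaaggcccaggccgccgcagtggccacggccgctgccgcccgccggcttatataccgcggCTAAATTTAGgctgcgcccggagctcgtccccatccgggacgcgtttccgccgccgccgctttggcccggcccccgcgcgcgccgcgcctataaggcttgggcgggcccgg
KLF4, chr9:107489770-107490019, minus strand: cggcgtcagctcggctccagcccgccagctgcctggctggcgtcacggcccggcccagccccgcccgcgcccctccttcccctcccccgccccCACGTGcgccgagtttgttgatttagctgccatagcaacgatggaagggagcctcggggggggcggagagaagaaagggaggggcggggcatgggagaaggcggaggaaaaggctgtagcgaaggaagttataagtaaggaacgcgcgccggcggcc
KLF6, chr10:3785282-3785459, minus strand: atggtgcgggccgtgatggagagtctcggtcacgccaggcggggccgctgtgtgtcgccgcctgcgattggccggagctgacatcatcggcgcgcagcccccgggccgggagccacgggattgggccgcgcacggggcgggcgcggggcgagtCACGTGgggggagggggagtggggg
KLF11, chr2:10043637-10043662, plus strand, inside an annotated KLF11 exon: gcccgcagccCACGTGcggccgctgc
KLF7, chr2:207134308-207134333, minus strand: gaacgttgtaCACGTGtgcagctgtg

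Motifs were searched on both strands by their letters. The MEF2 motif lay 120 to 111 bases before the KLF2 start and in no other member window, and 2.99% of the 35116 windows of all genes held it. CACGTG stood 157 to 152 bases before the KLF4 start, 97 to 92 before the KLF6 start, 182 to 177 before the first listed KLF11 start and 186 to 181 before the fourth listed KLF7 start. It was in 4 of the 13 member windows and in 7.26% of all windows. The cyclic AMP response element TGACGTCA was in 1 member window, the second of KLF11, and in 1.85% of all windows. GGGCGG, the GC box, was in 8 of the 13 member windows against 44.95% of all, and CACCC, which the KLFs themselves bind, in 7 of 13 against 59.87%. Motifs can share bases, as TGACGTCA and CACCC do in the second KLF11 window. No member window held the AP-1 sequence TGANTCA (7.71% of all windows) or the NF-kB motif (11.27%), and the CArG box of SRF was in 1 KLF7 window (1.29%). A match here is a run of letters, not a measured binding site.

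Gene counts per library ranged from 20481363 to 26962994. MYC was between 48.4 and 348.9 CPM, counts scaled to library size, in control cells and between 493.7 and 1593 CPM in MYC cells, without overlap, and transcripts of the vector and of the cells' own gene are counted together. The summed CPM of 5 A549 markers was 11336 to 14521 in A549 and at most 924.6 in the other lines. That of 5 SKOV3 markers was 1423 to 6037 in SKOV3 and at most 158.5 elsewhere. Most of these sums came from ALDH1A1 (8444 CPM in A549 control cells with DMSO) and ERBB2 (5747 in those of SKOV3). Not every marker followed its sum. In the same libraries AKR1C1, listed for A549, had 329.9 CPM in A549 and 347.1 in SKOV3, and WT1, listed for SKOV3, had 4.49 and 0.347. The 5 markers listed for MDA-MB-231 did not set it apart, with 1456 to 2082 CPM there and up to 2288 in A549. Endothelial and leukocyte genes, markers of cells in which KLF2 is best known, summed to 0.636 to 4.52 CPM (5 genes) and 0.0920 to 8.97 CPM (5 genes). In bulk RNA, fewer cells of a kind and less RNA per cell cannot be told apart.

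Levels of different members were compared per length, as CPM per kilobase of exon (GENCODE 29, another release than the count table used), in the control cells with DMSO of each line. KLF5, a growth-promoting epithelial factor, came first in A549 at 41.1 and in SKOV3 at 34.3, and KLF6 came first in MDA-MB-231 at 31.5. KLF10, an early TGF-beta response gene, was among the first 4 in all 3 lines at 18.9, 11.4 and 16.9 in A549, SKOV3 and MDA-MB-231. KLF13 stood behind KLF5 and 1 other member in A549 and SKOV3 at 18.7 and 14.0 and behind 6 members in MDA-MB-231 at 3.82. KLF2 had 3.82, 3.55 and 7.47 in the same order, behind 7 members in A549 and SKOV3 and behind 4 in MDA-MB-231, and KLF9 had 2.29, 2.21 and 2.55. The lowest were KLF11 in A549 (2.13), KLF4 in SKOV3 (1.99) and KLF7 in MDA-MB-231 (1.76). With 1 library per line and group, neighbours in this order have no test.

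Over both genotypes, 5 of the 10 members rose and none fell at a Benjamini-Hochberg adjusted p under 0.05 (edgeR quasi-likelihood test over all genes), where 4.66% of all tested genes rose. All 10 fitted changes were above 0, with a median of 0.65 on the log2 scale against 0.00 for all genes tested. The 10 were chosen with earlier results of these data known, so their share is no independent test of the family. KLF2, KLF6, KLF7, KLF4 and KLF11 rose. KLF13, KLF3, KLF10, KLF9 and KLF5 did not pass, and KLF5 and KLF9 were higher in only 3 of their 6 pairs. In the 60 single pairs of a tipifarnib and a DMSO library, 50 were higher in tipifarnib, and 4 members (KLF2, KLF6, KLF7 and KLF11) were higher in all 6 of their pairs. The same counts of pairs were not made over all genes, so they have no background here. The 6 pairs are 2 from each line, taken as independent by the model, so these p-values can be too small. Without MDA-MB-231 no member passed the test, and without SKOV3 only KLF2 and KLF6 did.

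**Figure D1:**
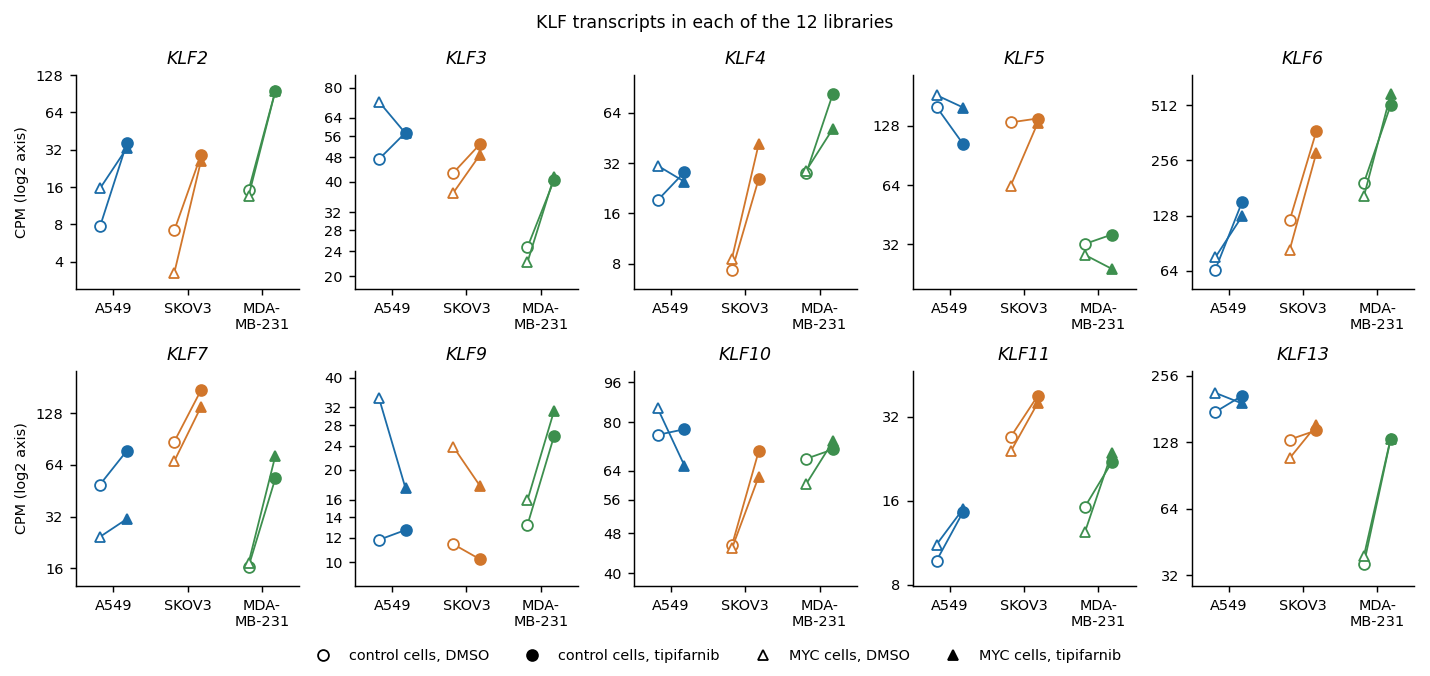
CPM of the 10 members (log2 axis) in each of the 12 libraries, by cell line; lines join the DMSO (open) and tipifarnib (filled) libraries of control cells (circles) and MYC cells (triangles). For KLF2 all 6 tipifarnib libraries, from 26.1 CPM, lie above all 6 DMSO libraries, which reach 15.6.

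KLF2, the quiescence factor of endothelium and T cells (ENSG00000127528.5), showed the largest rise. A549 control cells had 7.70 CPM with DMSO and 36.0 with tipifarnib, and A549 MYC cells had 15.6 and 33.0. In SKOV3 the same libraries had 7.16, 29.1, 3.25 and 26.1 CPM. In MDA-MB-231 they had 15.1, 95.2, 13.5 and 95.0 CPM. KLF2 was the 1 member with every tipifarnib library above every DMSO library of any line. The rise was 2.24 ± 0.27 log2 (SE of the fit, adjusted p = 0.00149), with single pairs from 2.11-fold to 8.03-fold.

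KLF6, a widely expressed early response factor known to activate CDKN1A, went in A549 from 65.1 to 152.0 CPM in control cells and from 76.0 to 127.1 in MYC cells. In SKOV3 it went from 120.6 to 369.0 and from 83.1 to 281.4 CPM. In MDA-MB-231 it went from 193.3 to 510.5 and from 163.0 to 585.1 CPM. Each line's tipifarnib libraries lay above its DMSO libraries, while the ranges across lines overlapped. The change was 1.43 ± 0.15 log2 (adjusted p = 0.000970). It was the only member besides KLF2 whose call held without SKOV3.

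KLF4, one of the reprogramming factors and a differentiation factor of epithelia, rose in 2 of the lines. In SKOV3 control cells it went from 7.29 to 25.7 CPM and in MYC cells from 8.60 to 41.6. In MDA-MB-231 it went from 27.8 to 83.3 and from 28.9 to 51.4 CPM. In A549 the pairs ran in opposite directions, from 19.2 to 28.3 CPM in control cells and from 30.9 to 24.8 in MYC cells. Over both genotypes KLF4 changed by 1.14 ± 0.31 (adjusted p = 0.0420).

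KLF7, known for its role in growing neurons, moved with line and with genotype. In A549 it went from 49.2 to 77.3 CPM in control cells and from 24.4 to 31.0 in MYC cells. In SKOV3 it went from 87.5 to 174.6 and from 67.3 to 139.7 CPM, and in MDA-MB-231 from 16.3 to 53.4 and from 17.2 to 72.1. The tipifarnib and DMSO ranges did not overlap within SKOV3 or MDA-MB-231, but did in A549, where both MYC libraries were below both control libraries. The change over both genotypes was 1.16 ± 0.27 (adjusted p = 0.0248).

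KLF5 did not pass in any line with all libraries in. It had 159.9, 103.3, 183.4 and 158.7 CPM in A549 (control with DMSO, control with tipifarnib, MYC with DMSO, MYC with tipifarnib). In SKOV3 it had 133.4, 139.6, 63.8 and 131.9 CPM and in MDA-MB-231 32.2, 35.9, 28.3 and 24.1. Both pairs were lower in tipifarnib in A549, both higher in SKOV3, and 1 each way in MDA-MB-231. The change over both genotypes was 0.03 ± 0.21 (adjusted p = 0.948), and it was -0.20 without SKOV3.

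Among the repressors, KLF11 was the 1 member called over both genotypes. This second TGF-beta inducible factor, linked to control of the insulin gene, went in A549 from 9.77 to 14.7 CPM in control cells and from 11.2 to 15.0 in MYC cells. In SKOV3 it went from 27.2 to 38.0 and from 24.1 to 35.8 CPM, and in MDA-MB-231 from 15.3 to 22.0 and from 12.4 to 23.8. The 6 pairs ranged from 1.35-fold to 1.92-fold, and no line's tipifarnib and DMSO libraries overlapped. The change was 0.59 ± 0.11 (adjusted p = 0.00934). Exons of the antisense gene AC104794.4 share 9.1% of the KLF11 exon length, and the counting's strand setting is not given in the sources used here, so reads of the 2 genes may be mixed.

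KLF13, a GC-box factor of lymphocytes and heart, had 35.9 and 39.0 CPM in the DMSO libraries of MDA-MB-231 and 132.1 and 133.0 in tipifarnib. In SKOV3 it had 131.6 and 108.3 CPM in DMSO and 144.9 and 152.8 in tipifarnib, and in A549 175.7 and 214.3 in DMSO and 207.9 and 191.8 in tipifarnib. With tipifarnib, MDA-MB-231 lay above both SKOV3 DMSO libraries and below both SKOV3 tipifarnib libraries. Over both genotypes the change was 0.71 ± 0.27 (adjusted p = 0.118), and DESeq2 gave an adjusted p of 0.0369.

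KLF3 also changed little in A549, where it had 47.3 and 72.2 CPM in DMSO (control and MYC cells) and 57.5 and 57.1 in tipifarnib. In SKOV3 it had 42.7 and 36.9 in DMSO and 52.8 and 48.8 in tipifarnib, and in MDA-MB-231 24.7 and 22.1 in DMSO and 40.6 and 41.6 in tipifarnib. Its change was 0.37 ± 0.16 (adjusted p = 0.159), and 0.59 with an adjusted p of 0.0479 without A549. The antisense gene KLF3-AS1 shares 4.2% of the KLF3 exon length.

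KLF10 ranged from 44.8 to 85.2 CPM in DMSO and from 62.3 to 77.4 in tipifarnib over all lines, and changed by 0.18 ± 0.12 (adjusted p = 0.369). KLF9, a target of glucocorticoid and thyroid hormone receptors, ranged from 11.5 to 34.4 CPM in DMSO and from 10.2 to 31.2 in tipifarnib. Its change was 0.06 ± 0.26 (adjusted p = 0.913), and it was -0.36 without MDA-MB-231.

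Within single lines, in models where each line had its own tipifarnib and MYC effects, 9 of the 10 members rose in at least 1 line and KLF5 in none. In A549, 3 members rose, where 3.56% of all genes did. These were KLF2 (1.63 ± 0.27, adjusted p = 0.0111), KLF6 (0.98 ± 0.15, adjusted p = 0.00947) and KLF7 (0.50 ± 0.13, adjusted p = 0.0474). In SKOV3, 6 rose against 6.57% of all genes: KLF2 (2.48 ± 0.29), KLF4 (2.05 ± 0.25), KLF6 (1.69 ± 0.15), KLF7 (1.02 ± 0.13), KLF10 (0.55 ± 0.13) and KLF11 (0.53 ± 0.15), with adjusted p from 0.000405 to 0.0491. In MDA-MB-231, 8 rose against 10.6% of all genes. They were KLF2 (2.73 ± 0.27), KLF7 (1.89 ± 0.14), KLF13 (1.82 ± 0.14), KLF6 (1.62 ± 0.15), KLF4 (1.21 ± 0.23), KLF9 (0.97 ± 0.23), KLF3 (0.81 ± 0.16) and KLF11 (0.73 ± 0.16), with adjusted p from 0.000148 to 0.0153. The lines' medians over the 10 members were 0.08 (A549), 0.55 (SKOV3) and 1.09 (MDA-MB-231), in log2 units. KLF2, KLF6 and KLF7 passed in all 3 lines. The shares of all genes that rose in at least 1 line, or in all 3, were not counted.

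Leaving out 1 library leaves a line a single pair. Without the control DMSO or the control tipifarnib library of A549, KLF2 changed by 1.08 in both cases (adjusted p = 0.0680 and 0.0684) and KLF6 by 0.74 and 0.75 (0.0654 and 0.0637), and KLF7 missed the threshold without any 1 of the 4 A549 libraries. KLF9 passed in A549 at -0.98 without either control library (adjusted p = 0.0431 and 0.0427), and KLF5 in SKOV3 at 1.05 without either control library (0.0140 and 0.0137). In SKOV3 the calls of KLF10 and KLF11, and in MDA-MB-231 those of KLF3, KLF9 and KLF11, were lost without any 1 of the line's libraries, and KLF4 was lost in MDA-MB-231 without either control library (adjusted p = 0.160 and 0.167).

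**Figure D2:**
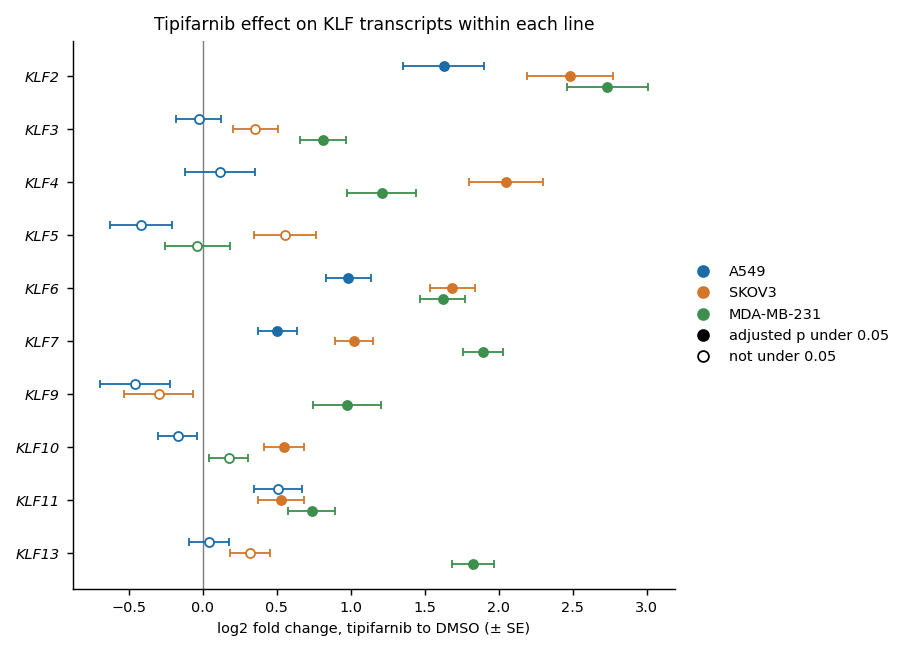
Log2 fold change of each member, tipifarnib to DMSO, ± SE of the fit in A549, SKOV3 and MDA-MB-231; filled points have an adjusted p under 0.05. KLF2, KLF6 and KLF7 are filled in all 3 lines, and the KLF13 point of MDA-MB-231, at 1.82, is far from those of A549 (0.04) and SKOV3 (0.32).

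The tipifarnib effect differed between lines for 4 members, where it did so for 7.69% of all genes: KLF13 (adjusted p = 0.00423), KLF7 (0.0100), KLF4 (0.0255) and KLF9 (0.0430). For KLF2 the lines did not differ at the threshold (adjusted p = 0.162), nor for KLF6 (0.102), KLF3 (0.0871), KLF10 (0.0872), KLF5 (0.135) or KLF11 (0.707). KLF2 and KLF6 did pass without the low count filter (0.000327 and 0.00370) and without either control library of A549 (KLF2 0.0297 and 0.0300, KLF6 0.0480 and 0.0470). KLF3 and KLF10 passed in the same 3 settings, and KLF5 without the filter and without either control library of SKOV3. A549 received a lower dose, so line and dose cannot be told apart there. Between MDA-MB-231 and SKOV3, given the same dose, 3 members differed against 7.34% of all genes, in a comparison added after the data were seen. KLF13 rose by 1.51 ± 0.20 more in MDA-MB-231 (adjusted p = 0.00547), KLF9 by 1.27 ± 0.33 more (0.0466) and KLF7 by 0.87 ± 0.19 more (0.0263). KLF4 had a difference of -0.84 ± 0.34 (adjusted p = 0.158) and KLF6 of -0.06 ± 0.21 (0.912). Without any 1 of the MDA-MB-231 libraries, no member passed in either of these comparisons. KLF7 and KLF9 also lost their call between MDA-MB-231 and SKOV3 when any 1 of the SKOV3 libraries was left out. KLF9 then lost its call over the 3 lines as well. KLF4 lost its call over the 3 lines without either MYC library of SKOV3 or without the MYC DMSO library of A549.

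In MYC against control cells over both treatments, 0 of 10 members passed, where 7.35% of all genes did (1 member at an unadjusted p under 0.05, and 1 with DESeq2). KLF9 came nearest, at 0.77 ± 0.25 (adjusted p = 0.0938, and 0.0322 with DESeq2), and was higher in MYC cells in all 6 pairs. With DMSO, A549 control cells had 11.8 CPM and A549 MYC cells 34.4, and with tipifarnib they had 12.7 and 17.4. In SKOV3 it had 11.5 and 23.9 with DMSO and 10.2 and 17.8 with tipifarnib, and in MDA-MB-231 13.2 and 15.9, and 25.9 and 31.2. Both MYC libraries lay above both control libraries in A549 and SKOV3, not in MDA-MB-231. KLF4, KLF6 and KLF11, whose windows hold CACGTG as the fourth KLF7 window does, changed by 0.19 ± 0.30, -0.15 ± 0.15 and -0.03 ± 0.11. KLF7 changed by -0.40 ± 0.27, KLF5 by -0.16 ± 0.21, KLF10 by -0.06 ± 0.12, KLF2 by -0.02 ± 0.26, KLF13 by 0.02 ± 0.26 and KLF3 by 0.05 ± 0.16. Within SKOV3, KLF6 changed by -0.46 ± 0.15 (adjusted p = 0.0893) and passed without the low count filter (-0.48, adjusted p = 0.00797).

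Within A549, 2 members passed against 17.7% of all genes. KLF7 changed by -1.17 ± 0.13 (adjusted p = 0.000568), with MYC cells at 0.496 of the control level in DMSO and 0.400 in tipifarnib, and KLF9 changed by 1.00 ± 0.24 (adjusted p = 0.0176). In SKOV3, KLF9 rose by 0.93 ± 0.23 (adjusted p = 0.0388), the 1 member to do so where 4.58% of all genes rose. In MDA-MB-231 0 members passed, where 1.64% of all genes did (0 members at an unadjusted p under 0.05, and 0 with DESeq2). The MYC effect differed between lines for KLF7 alone (adjusted p = 0.00916, against 3.07% of all genes). KLF7 changed by -0.35 ± 0.13 in SKOV3 and 0.27 ± 0.13 in MDA-MB-231, neither past the threshold. The KLF7 difference was lost without either tipifarnib library of MDA-MB-231, the KLF9 call in A549 without either DMSO library of that line (adjusted p = 0.269 and 0.282), and in SKOV3 without any 1 library (adjusted p from 0.120 to 0.370).

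**Figure D3:**
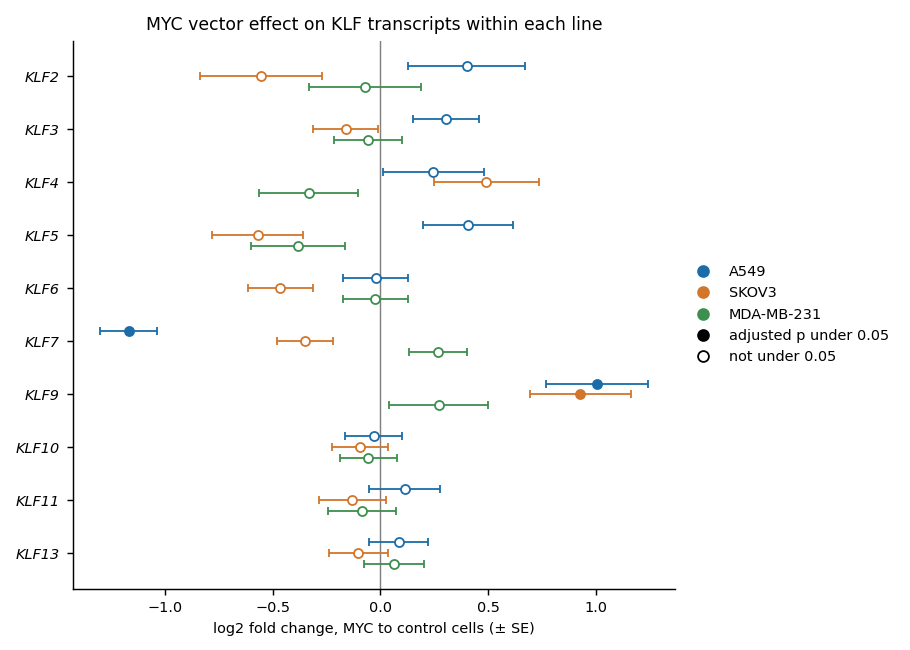
Log2 fold change of each member, MYC to control cells, ± SE of the fit in the 3 lines; filled points have an adjusted p under 0.05. The filled points are KLF7 in A549 at -1.17 and KLF9 in A549 and SKOV3 at 1.00 and 0.93.

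The tipifarnib response of the family was then set between control and MYC cells. No member had a different response by the interaction of MYC and tipifarnib, and 0% of all genes did (edgeR; 0 members and 125 genes at an unadjusted p under 0.05, 0 members with DESeq2). The interaction was -0.13 ± 0.52 for KLF2, 0.01 ± 0.30 for KLF6, 0.25 ± 0.53 for KLF7 and -0.37 ± 0.60 for KLF4. It was -0.59 ± 0.50 for KLF9, 0.24 ± 0.42 for KLF5, -0.14 ± 0.31 for KLF3, -0.12 ± 0.24 for KLF10, 0.11 ± 0.22 for KLF11 and -0.04 ± 0.52 for KLF13. With errors of this size, a difference in response as large as the error would not have been detectable.

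Levels were then compared between cell lines, where the shares of members called were near those of all genes. Between A549 and SKOV3, over all 4 groups, 4 members differed, where 58.1% of all genes did. KLF11 (-1.30 ± 0.13), KLF7 (-1.33 ± 0.33) and KLF6 (-0.85 ± 0.19) were lower in A549 and KLF10 (0.47 ± 0.15) was higher. Between A549 and MDA-MB-231, 6 differed against 57.3% of all genes. KLF5 (2.35 ± 0.27), KLF13 (1.42 ± 0.33) and KLF3 (0.90 ± 0.19) were higher in A549, and KLF6 (-1.64 ± 0.19), KLF2 (-0.89 ± 0.32) and KLF11 (-0.51 ± 0.13) were lower. The comparisons between lines pool DMSO and tipifarnib libraries, and A549 received the lower dose. For KLF2 both MDA-MB-231 libraries with DMSO lay between those of A549, and both with tipifarnib lay above those of A549. Between SKOV3 and MDA-MB-231, 8 differed against 61.6% of all genes. KLF5 (1.94 ± 0.27), KLF7 (1.68 ± 0.33), KLF13 (0.83 ± 0.33), KLF11 (0.79 ± 0.13) and KLF3 (0.52 ± 0.19) were higher in SKOV3. KLF2 (-1.64 ± 0.32), KLF4 (-1.34 ± 0.38) and KLF6 (-0.79 ± 0.19) were lower. Without the control DMSO group KLF3, KLF4 and KLF13 lost this last call (adjusted p = 0.165, 0.0567 and 0.226) and KLF11 that between A549 and MDA-MB-231 (0.0507). KLF13 also lost it without the MYC DMSO group (0.140), KLF3 without the control tipifarnib group (0.0718), and KLF2 its call between A549 and MDA-MB-231 without any group but MYC DMSO (0.0944 to 0.189). KLF10 lost its call without either DMSO group (0.110 and 0.116). By mean CPM the order was MDA-MB-231, SKOV3, A549 for KLF6 (363.0, 213.5 and 105.0) and the reverse for KLF5 (30.1, 117.2 and 151.3), whose A549 and SKOV3 levels did not differ at the threshold (0.40 ± 0.26, adjusted p = 0.206).

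Relatives and partners of the family were counted from lists of known genes. Of the other KLF genes, 4 were tested (KLF8, KLF12, KLF15 and KLF16) and 0 changed in tipifarnib (median 0.19), the nearest being KLF8 at 0.79 ± 0.64 (adjusted p = 0.463). KLF8 was low, with at most 0.455 CPM in A549. Among 7 tested SP factors, the closest relatives, 0 rose and 1 fell: SP2 by -0.37 ± 0.10 (adjusted p = 0.0406). SP4 changed by -0.50 ± 0.14 (adjusted p = 0.0519) and SP1 by -0.28 ± 0.08 (0.0524). Over all tested genes, 6.63% fell in tipifarnib. Of 12 corepressors and coactivators 3 fell and 0 rose: SIN3A, the scaffold bound by KLF9, KLF10, KLF11 and KLF13, by -0.39 ± 0.08 (adjusted p = 0.0126), HDAC3 by -0.34 ± 0.09 (0.0363) and HDAC1 by -0.34 ± 0.09 (0.0407). Of 7 tested genes of the ERK5 and MEF2 arm 1 rose, MEF2D by 0.31 ± 0.09 (adjusted p = 0.0481), while MAP2K5, the gene of the kinase upstream of ERK5, changed by 0.30 ± 0.12 (0.126) and the ERK5 gene MAPK7 by 0.27 ± 0.12 (0.180). Of 6 TGF-beta pathway genes and 8 ubiquitin ligases that act on KLF proteins, 0 changed (medians 0.20 and 0.11). SMURF2 was nearest among the ligases at 0.49 ± 0.15 (adjusted p = 0.0670).

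Of 13 tested genes known as KLF targets 3 rose and 2 fell in tipifarnib, with a median of 0.36, where 4.66% of all genes rose and 6.63% fell. CDKN1A, the cell cycle inhibitor p21 and a target of KLF4 and KLF6, rose by 2.13 ± 0.25 (adjusted p = 0.00148). It went in control cells of A549 from 64.2 to 278.2 CPM, in those of SKOV3 from 5.95 to 22.9, and in those of MDA-MB-231 from 33.4 to 96.4. FGFBP1, a KLF5 target, changed by 2.09 ± 0.40 (adjusted p = 0.0117), while KLF5 did not pass. In A549 it went down in control cells, from 8.10 to 4.59 CPM, and up in MYC cells, from 0.63 to 11.2. In SKOV3 it went up in both. It was at most 0.275 CPM in MDA-MB-231, with 0 in DMSO, so that its fitted value can depend on the prior count. The keratin gene KRT19 rose by 1.22 ± 0.23 (0.0115). CCNB1, the mitotic cyclin repressed by KLF4, fell by 0.78 on the log2 scale (SE 0.08, adjusted p = 0.000888) and the survivin gene BIRC5 by 1.06 (SE 0.13, adjusted p = 0.00161). Of the endothelial KLF2 targets, THBD changed by 1.91 ± 0.62 (adjusted p = 0.0757) and NOS3 by 0.36 ± 0.50 (0.690). NOS3 was low, with at most 0.674 CPM in A549 and 1.835 in SKOV3. These genes have many other regulators, and the part of any KLF in their change was not tested.

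**Figure D4:**
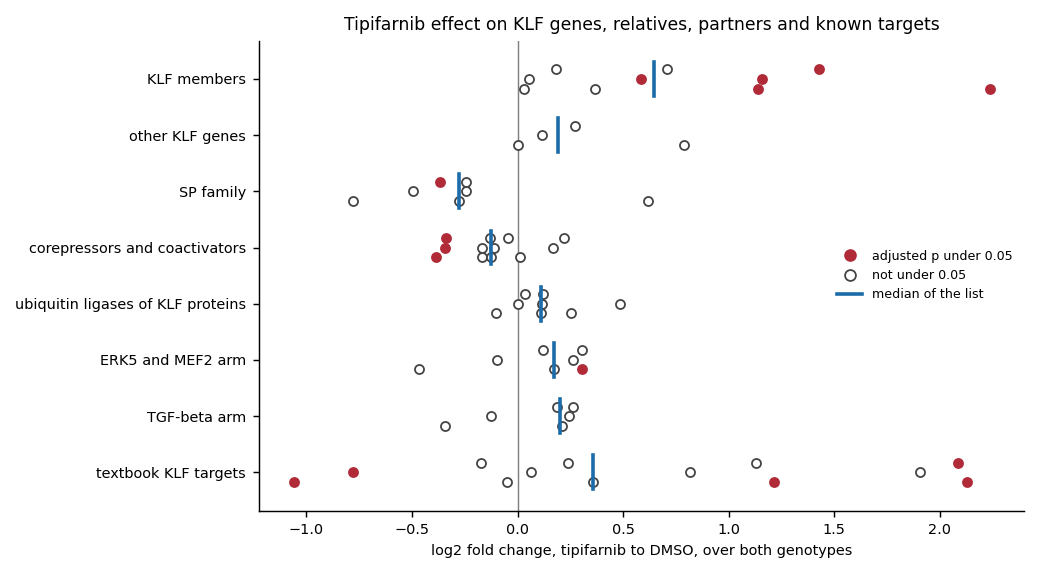
Log2 fold change, tipifarnib to DMSO over both genotypes, of each tested gene by list; filled points have an adjusted p under 0.05 and the bar is the list's median. The KLF members' median is 0.65, and those of the SP factors and of the corepressors and coactivators are -0.28 and -0.13.

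In MYC against control cells 4.5% of all tested genes rose and 2.84% fell. Of the 6 TGF-beta pathway genes 2 fell, the receptors TGFBR2 (-0.74 ± 0.16, adjusted p = 0.0256) and TGFBR1 (-0.56 ± 0.13, 0.0354), and 0 of the 6 had a fitted change above 0 (median -0.46, against 0.00 for all genes). Of 7 genes of the ERK5 and MEF2 arm 1 fell, MAPK7 (-0.47 ± 0.12, 0.0445). Of the 13 known targets ODC1, also a classical MYC target, rose by 0.74 ± 0.14 (0.0185) and FGFBP1 changed by -1.63 ± 0.40 (0.0381). In A549 with tipifarnib FGFBP1 was higher in MYC cells, at 11.2 CPM against 4.59 in control cells. The other KLF genes, SP factors, cofactors and ligases had 0 calls, with KLF12 at -0.68 ± 0.19 (0.0599), KLF16 at 0.39 ± 0.12 (0.0705) and KLF15 at 1.62 ± 0.50 (0.0773). KLF15 was near the floor in 2 of the lines, with at most 0.168 CPM in A549 and 0.045 in SKOV3.

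Likeness of pattern was described by Pearson's r of log2 CPM over the 12 libraries after each line's mean was taken out, among 11683 genes. These libraries share lines and treatments, so genes that respond to tipifarnib correlate. KLF2 was most like KLF6 (r = 0.984), the chaperone gene DNAJB9 (0.975) and the ubiquitin ligase gene RNF14 (0.973). KLF6 was most like the chemokine gene CXCL8 (0.990), then KLF2 and WBP2 (0.970). KLF11 followed KLF2 (0.969) and KLF6 (0.965). KLF4 was most like IDH1 (0.976), WARS1 (0.967) and COX7A2L (0.965). KLF5 and KLF9 were the least like the other members, with r from -0.189 (KLF5 with KLF9) to 0.418 for KLF5 (with KLF10) and to 0.530 for KLF9 (with KLF3). KLF5 was most like AP1M2 (0.961), SGK1 (0.890) and IRS2 (0.889). KLF10 was most like IRF2BP2 (0.941), N4BP2 (0.939) and USP32 (0.939). KLF13 was nearest to KLF3 within the family (0.897).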

How the data were processed

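Polyadenylated RNA of 12 cultures was sequenced. The table the authors deposited gives raw counts, as whole numbers, for every gene in each library. Per the submitters' processing notes, TopHat2, HTSeq, DESeq2 and build hg19 were used, and versions, annotation and strand setting are not given in the sources used here. The 5 HTSeq summary rows, 17.5% to 19.9% of counts, were left out.

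Low genes were removed with filterByExpr, leaving 17096, which were scaled with TMM, and tested with the edgeR 4.0.16 quasi-likelihood test (R 4.3.3) with Benjamini-Hochberg adjustment over all genes and a threshold of 0.05. Comparisons over lines, and of levels between lines, used line and group (6 residual degrees of freedom). Comparisons of effects within a line, or of effects between lines, gave every line separate MYC and tipifarnib terms (3 residual degrees of freedom). The standard error is the log2 fold change over the root of the F statistic. Line paired the samples by design. After each group's mean was taken out, libraries of 1 line in different groups deviated together (r from 0.829 to 0.922, 18 pairs). Those of different lines had r from -0.551 to -0.307 (36 pairs), where taking out the mean itself makes r negative. Patterns used log2 CPM with a prior count of 2 and genes with a mean of at least 1.

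Members and lists were chosen with earlier results of these data known. By the rule for named genes all 10 members were tested in every comparison, those not named in a comparison between or within lines having missed the threshold there, and up to 3 genes per list were named by smallest p. THBD and NOS3 were named after their values were seen, as were FGFBP1 and KRT19 for tipifarnib and KLF11 and KLF13 in the patterns. KLF14, KLF18 and PECAM1 matched no row. KLF1, KLF17, SP7, SP8, MEF2B and MAOB had too few counts to test. Alternatives were DESeq2 1.42.0 size factors and tests, no low count filter, no replicate block, and leaving out lines or libraries.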

Additional observations from a re-analysis of the deposited data

Results flagged for a closer look

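The tipifarnib effect differed between the 3 lines for 4 members by a test of the difference itself. For KLF13 the adjusted p was 0.00423, with log2 changes of 0.04 (A549), 0.32 (SKOV3) and 1.82 (MDA-MB-231). For KLF7 it was 0.0100, with 0.50, 1.02 and 1.89. For KLF4 it was 0.0255, with 0.12, 2.05 and 1.21, and for KLF9 0.0430, with -0.46, -0.30 and 0.97. The MYC effect differed between lines for KLF7 (adjusted p = 0.00916), with -1.17, -0.35 and 0.27 in the same order. Groups held 3 libraries, too few for a check of single outlying libraries within a group. All 4 tipifarnib differences were lost when any 1 of the MDA-MB-231 libraries was left out. KLF4 and KLF9 also lost theirs without single SKOV3 libraries, as given above. The KLF7 MYC difference was lost without either tipifarnib library of MDA-MB-231. A549 received the lower dose, so line and dose cannot be told apart there.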

How the results depend on the processing

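Scaling with DESeq2 size factors gave the same number of members called as TMM in all 15 comparisons. Cell line is the pairing, and with no replicate block the count for tipifarnib over both genotypes went from 5 to 0. Without 1 line in turn it ranged from 0 to 6. For MYC over both treatments, DESeq2 and no low count filter each called 1 member, KLF9. Without the low count filter the count went from 4 to 9 for tipifarnib effects differing between lines and from 3 to 5 for MDA-MB-231 minus SKOV3. It went from 1 to 4 for MYC within SKOV3 and from 1 to 4 for MYC effects differing between lines. The shares of all genes called under these alternatives were not counted, so these counts have no background here, and the cause was not tested.

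Leaving out 1 library in turn gave 1 to 2 members for tipifarnib within A549, 4 to 5 within MDA-MB-231, 1 to 3 for MYC within A549, 0 to 1 for MYC within SKOV3, 0 to 8 for tipifarnib effects differing between lines, 0 to 3 for MDA-MB-231 minus SKOV3 and 0 to 2 for MYC effects differing between lines. Without either control library of A549, the member called in that line was KLF9, which was lower in tipifarnib (-0.98). None of the rises called in A549 was kept there. Leaving out 1 group gave 5 to 8 for SKOV3 against MDA-MB-231. Effects that differ between lines could not be fitted that way, since no residual degrees of freedom remain. The leave-outs for effects that differ between lines, the comparison of MDA-MB-231 with SKOV3 and an interaction model in which lines had separate effects (0 members called) were added after seeing the data. Of 1300 single member values under an alternative 1145 kept their side of the threshold, 105 lost and 50 gained a call. No called value changed sign, and 65 uncalled ones did. With 1 library per line and group, effects within a line rest on 2 pairs.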
